A study of Mus musculus with 2 samples.

Results

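The 10 genes described here, Ttr, Folr1, Kl, Aqp1, Kcnj13, Otx2, Clic6, Enpp2, Sostdc1 and Cldn2, are markers of the choroid plexus, chosen by symbol from 36998 distinct gene names on the array. Every probe other than controls that carried 1 of these symbols was used, which gave 18 probes with 1 spot each. The 2 arrays, with single-colour labelling and 60-mer probes, held striatal RNA of WT mice on 1 and of Cx30 KO mice on the other, each pooled from 2 males. Both groups received MPTP, a toxin of dopaminergic neurons, in 4 injections of 20 mg/kg at intervals of 2 h at 8 weeks of age, and the striatum was taken on day 1 after the last injection. In the labels the WT strain is C57BL/6J and the Cx30 KO strain is Cx30-LacZ, a line that lacks connexin 30 throughout the body. The methods describe the WT controls as non-mutant offspring of heterozygous parents, so that the strain of the WT mice is not settled between these sources. With 1 array per group there was no replicate and no test, and each value below is that of 1 pool of mice. The errors given are those that the scanner software estimates for a spot, and they do not include the spread between mice.

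The choroid plexus is a folded tissue of the brain ventricles in which an epithelium surrounds fenestrated capillaries and secretes the cerebrospinal fluid. Its epithelial cells carry water channels, ion channels and transporters in their membranes, are joined by leaky tight junctions and release carrier proteins into the fluid. The plexus of the lateral ventricle lies beside the striatum, so pieces of it can enter a striatal dissection. In RNA from pieces of tissue, fewer cells of a type and less RNA per cell cannot be told apart.

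The sequences of 4 of these probes are shown because they lie in protein-coding sequence and include both the brightest member probe and probes not well above background on either array. Each is written 5′ to 3′ in the sense of the mRNA, and capitals mark a stop codon at the end of the probe. The Enpp2 probe lies at chr15:54670921-54670980 on the minus strand, the Kcnj13 probe at chr1:89282991-89283050 on the minus strand, the Otx2 probe at chr14:49281026-49281085 on the minus strand and the Cldn2 probe at chrX:136343432-136343491 on the plus strand, all in the mm9 build.
Enpp2: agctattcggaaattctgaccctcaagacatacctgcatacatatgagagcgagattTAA
Kcnj13: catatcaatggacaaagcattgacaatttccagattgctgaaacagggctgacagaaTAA
Otx2: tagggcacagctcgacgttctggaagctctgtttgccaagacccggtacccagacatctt
Cldn2: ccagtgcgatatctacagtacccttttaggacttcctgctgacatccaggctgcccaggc

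The log2 ratios of the choroid plexus markers differed in size, while a difference in direction was not established. Of those detected, 4 had negative and 2 had positive log2 ratios of Cx30 KO over WT. The positive ones were Kl, at 0.23 ± 0.24 (scanner error), and Otx2, at 0.96 ± 0.56 and not well above background in WT. Among the negative ones, Clic6 was at −0.02 ± 0.20. Of the 10 genes, 6 had a probe well above background on at least 1 array, and these genes had log2 ratios of Cx30 KO over WT from −1.27 for Ttr to 0.96 for Otx2, with a median of −0.30. The median over all 22008 genes detected was 0.03. Ttr and Enpp2 were lower in Cx30 KO by the study's limits, applied with a Z-score window chosen here, which ask for a Z-score no higher than −2.0 and a ratio no higher than 0.66, and 0 members were higher, for which a Z-score of at least 2.0 and a ratio of at least 1.5 were required. By the same criteria, 3.39% of all genes detected were lower and 2.39% were higher. With a share of 2.39%, the absence of higher calls among 6 genes is not a result about the members. The Z-score sets the log2 ratio of a probe against those of the 1000 probes nearest to it in mean signal, and it measures no spread between mice. The methods name no such window, and with a Z-score over all probes at once Ttr alone of the members was lower, while over all genes 455 were lower and 502 higher, against 746 and 525 with the window. Ratios and log2 ratios are taken after scaling each array to its 75th percentile, whereas the signals printed with them are not scaled, so the ratio of 2 printed signals differs slightly from the ratio given.

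Of the 18 probes, 7 were well above background on both arrays, 1 on the Cx30 KO array only and 10 on neither. The lowest signal that the software marked as well above background was 19.8 in WT and 17.4 in Cx30 KO. The 10 probes on neither array had signals of 3.66 to 20.2, and 5 of them carried on both arrays the substitute value that the software gives to a spot at background. Aqp1, Kcnj13, Sostdc1 and Cldn2 were not detected by any probe, so only the other 6 genes gave values here. Whether the signal of these 6 came from choroid plexus was not tested. Ttr, Folr1, Kl and Otx2 each had a detected probe and at least 1 that was not detected.

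**Figure D1:**
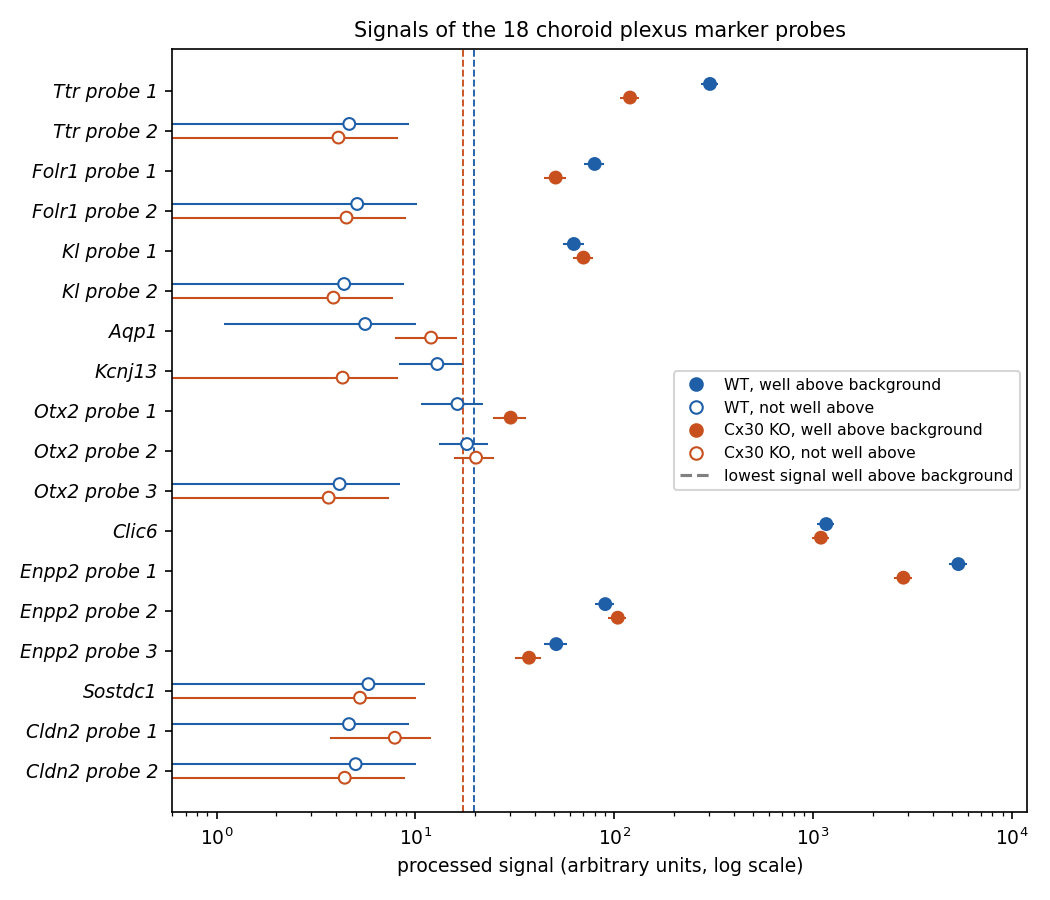
Processed signal (arbitrary units, log axis) of each of the 18 probes in WT (blue) and Cx30 KO (orange), with the scanner software's error as bars; bars that end at the left edge reach further down. Filled points were well above background, open points were not, and dashed lines mark the lowest signal well above background on each array; Aqp1, Kcnj13, Sostdc1 and Cldn2 have only open points.

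Among the secreted products, Ttr encodes transthyretin, a carrier of thyroxine that the choroid plexus epithelium makes in large amounts. The detected probe of Ttr measured 304 ± 30.7 (scanner error) in WT against 120.2 ± 12.7 in Cx30 KO. After scaling, the WT pool was 2.40-fold higher, and its log2 ratio of −1.27 ± 0.21, with a Z-score of −3.70, was the lowest log2 ratio of the 6 detected genes. The other Ttr probe, which is assigned to the same transcript, NM_013697, had substitute values of 4.65 in WT and 4.10 in Cx30 KO. The difference of Ttr therefore rests on 1 spot per array.

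Enpp2 encodes autotaxin, a secreted enzyme that makes lysophosphatidic acid and is also a known product of oligodendrocytes. Its probe at the end of the coding sequence, shown above, measured 5389 ± 539 in WT against 2853 ± 285 in Cx30 KO. WT was 1.80-fold higher on this probe, for a Z-score of −3.11 and a log2 ratio of −0.85 ± 0.20. The other Enpp2 probes were detected on both arrays, and neither met the criteria. The probe named by the cDNA AK046689 gave 90.2 ± 9.99 in WT and 104.3 ± 11.1 in Cx30 KO, for a log2 ratio of 0.28 ± 0.22. The probe named by the cDNA AK038940 gave 51.1 ± 6.86 and 37.3 ± 5.48, a log2 ratio of −0.38 ± 0.29. Enpp2 was the only member with more than 1 detected probe, and its probes did not share a direction. The call of Enpp2 was lost when its probes were averaged, with ratio limits of 2 and 0.5 and with a Z-score over all probes at once, which was −1.45.

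Sostdc1 encodes a secreted antagonist of BMP and Wnt signalling. Its probe had signals of 5.81 in WT and 5.27 in Cx30 KO, neither of them well above background.

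Among the membrane proteins, Folr1 encodes the folate receptor alpha, which carries folate across the epithelium into the cerebrospinal fluid. Its detected probe gave 79.8 ± 9.22 in WT and 50.8 ± 6.53 in Cx30 KO, which after scaling is a ratio of 0.669 and a log2 ratio of −0.58 ± 0.25. The Z-score was −1.34, so Folr1 did not meet the criteria. The other Folr1 probe had substitute values of 5.10 and 4.50.

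Kl encodes klotho, a co-receptor for FGF23 that is also shed into body fluids. The probe of NM_013823 gave 62.7 ± 7.71 in WT and 70.1 ± 8.05 in Cx30 KO, for a log2 ratio of 0.23 ± 0.24, which is within the scanner error. The probe of AB010088, an mRNA of the secreted klotho isoform, had substitute values of 4.38 and 3.87.

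Clic6 encodes a member of the chloride intracellular channel family. Its signal was 1167 ± 117 in WT and 1097 ± 110 in Cx30 KO, and the log2 ratio of −0.02 ± 0.20 was the closest to 0 of the 6 detected genes. Clic6 and Enpp2 were the members furthest above the background limit, while Ttr, Folr1 and Kl lay between 2.93 and 15.4 times that limit on the 2 arrays.

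The water channel gene Aqp1, the potassium channel gene Kcnj13 and the tight junction gene Cldn2, which encode proteins of the epithelial membranes, were not detected. Aqp1 had signals of 5.59 in WT and 12.0 in Cx30 KO. Kcnj13 had 12.9 and 4.31. The Cldn2 probe shown above had 5.01 and 4.41, and the other Cldn2 probe had 4.64 and 7.88. No ratio is drawn from these signals, since all lie below the level that could be measured.

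Otx2 encodes a homeodomain transcription factor required for the formation and upkeep of the choroid plexus. Only its probe of NM_001286481 was detected, and only in Cx30 KO, where the signal was 30.2 ± 5.66. In WT the signal was 16.3 ± 5.59 and not well above background, which puts Otx2 at least 1.60-fold higher in Cx30 KO with this background subtraction and before scanner error. The log2 ratio was 0.96 ± 0.56, it was 0.22 with the normexp background correction, and with a Z-score of 0.84 the criteria were not met. The second Otx2 probe gave 18.2 in WT and 20.2 in Cx30 KO and the third, shown above, gave 4.16 and 3.66, none of them well above background. Otx2 lies on the same chromosome as Gjb6, the gene of connexin 30 that is deleted in Cx30 KO mice, with 8.46 Mb between the detected Otx2 probe and the Gjb6 probe. Gjb6 measured 1788 ± 179 in WT against 110.8 ± 11.6 in Cx30 KO, so WT was 15.4-fold higher, in the direction of the labels.

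**Figure D2:**
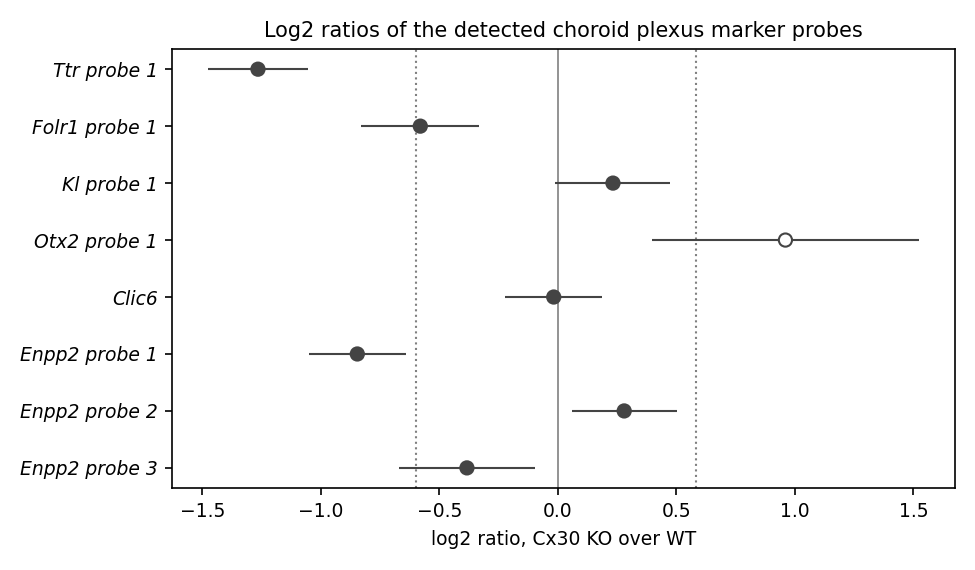
Log2 ratio of Cx30 KO over WT (x axis) for the 8 detected probes, with bars for the error propagated from the scanner software's errors; the open point was detected in Cx30 KO only and dotted lines mark ratios of 0.66 and 1.5. Ttr and the first Enpp2 probe lie left of the lower line with their whole bars, Clic6 lies at 0 and Otx2 lies to the right with the widest bar.

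The letters TAATCC, a core bound by OTX2-type homeodomains, were searched on both strands of RefSeq promoter windows of 300 bases (GRCm38.p6). Windows on chromosome 18, where Ttr lies, were left out beforehand, so Ttr was not searched. Among the rest, windows were matched for 5 of the members, Kcnj13, Kl, Aqp1, Otx2 and Cldn2, with 8 windows in all. The letters were found in 1 of the 8, a window of Otx2 itself, and in 7.06% of 32851 windows of all genes outside chromosome 18.

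The wider choroid plexus list holds 35 other genes of this epithelium, of which 28 were detected. Slc4a5, Tmem72, F5, Krt8, Lmx1a, Slc28a3 and Wfikkn2 were not detected by any probe. The 28 detected genes had a median log2 ratio of −0.07, with 15 negative and 13 positive values. By the criteria, 2 genes were lower and 1 was higher, beside shares of 3.39% lower and 2.39% higher over all genes detected. With the Z-score over all probes at once, Lbp was lower and Prlr and Kcne2, detected in Cx30 KO only, were higher. Kcne2 had 4.76 ± 4.78 in WT, not well above background, and 22.9 ± 4.82 in Cx30 KO, a level at least 1.22-fold higher. Its Z-score with the window was 1.71, so it did not meet the criteria there. Lbp, the gene of the lipopolysaccharide-binding protein, had 110.8 ± 12.1 in WT and 24.1 ± 4.84 in Cx30 KO and was 4.38-fold higher in WT. Igfbp2, the gene of an insulin-like growth factor binding protein, had 706 ± 70.7 and 344 ± 34.6 and was 1.95-fold higher in WT. Prlr, the prolactin receptor gene, had 20.4 ± 5.45 in WT, not well above background, against 136.4 ± 14.3 in Cx30 KO, a level at least 7.03-fold higher. Among the brightest genes of this list, Spint2 and Cab39l did not meet the criteria. Spint2, a protease inhibitor gene, had a log2 ratio of 0.19 and Cab39l, a gene of a kinase-binding protein, −0.44. A dimmer detected probe of Abca4 had a log2 ratio of 3.60, against 0.25 for the probe used and counted. Of the 8 solute carriers in the list 6 were detected, and the 5 detected on both arrays had log2 ratios from −0.35 to 0.12.

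The ependyma lines the ventricles that hold the choroid plexus, and its genes serve here as markers of neighbouring tissue. Of 16 ependymal genes 15 were detected, with a median log2 ratio of −0.22, and 1 was lower and 0 were higher by the criteria. The lower gene was Ccdc153, which encodes a coiled-coil protein of cilia, with 447 ± 45.0 in WT and 204.7 ± 21.0 in Cx30 KO, 2.08-fold higher in WT, a call that was lost with the Z-score over all probes at once. Rarres2, the gene of chemerin, had a log2 ratio of −0.29, Mia −0.27 and Foxj1, the regulator of motile cilia, 0.20. A dimmer detected probe of Hydin had a log2 ratio of 3.51, against −0.27 for the probe used. The counts of calls take only the brightest probe of a gene. Of 14 meningeal fibroblast genes 12 were detected, with a median of 0.06 and 0 calls in either direction. Over all genes detected, 3.39% were lower and 2.39% higher. The few or absent calls in the ependymal and meningeal lists are therefore not results about these lists. The brightest were Ptgds, the prostaglandin D synthase gene, with a log2 ratio of −0.18, Mgp with 0.13 and Dcn with 0.26.

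Markers of other cells and tissues differed between the same 2 arrays, and their part in the values of the choroid plexus markers was not tested. All 7 oligodendrocyte genes were detected, with log2 ratios from −0.91 to −0.44 and a median of −0.73, and 5 were lower by the criteria, including Mal at −0.79, though 0 with a Z-score over all probes at once. Of the 6 oligodendrocyte genes with several detected probes, 3 also had a dimmer probe with a positive log2 ratio, up to 0.24. The summed signal of the 7 was 175400 in WT against 104670 in Cx30 KO. The log2 ratios of the brightest Enpp2 probe, −0.85, and of Folr1, −0.58, both lie within the range of these genes. Those of the other Enpp2 probes, 0.28 and −0.38, lie outside this range, which takes only the brightest probe of each oligodendrocyte gene. Over all detected probes of the oligodendrocyte genes, log2 ratios ran from −1.05 for Mog to 0.24 for Mag. The value of −0.38 lies within that wider range and 0.28 lies just above it. Of the 4 blood genes Hba-a1 and Hbb-b1 were detected, both lower in Cx30 KO. Hba-a1 was 3.09-fold higher in WT and Hbb-b1, detected in WT only, at least 2.33-fold. The summed signal of the 2 detected blood genes was 3018 in WT and 922 in Cx30 KO. The probes of globin genes can also bind their near-identical copies.

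Of the 6 cortical neuron genes 5 were higher in Cx30 KO by the criteria, 3 of them not well above background in WT, and their median was 3.24 on the log2 scale, or 2.14 where genes detected on 1 array were set at their limit. Neurod2 was 12.7-fold higher and Tbr1 5.66-fold higher in Cx30 KO, and the summed signal of the 6 genes was 201 in WT and 1403 in Cx30 KO. The 9 striatal neuron genes, all detected, had a median of −0.16 and 0 calls, with Penk at 0.13 and Ppp1r1b at 0.23. Of the 5 thalamus genes 4 were detected, with a median of −0.21 and 0 calls, among them Synpo2 at −0.36 and Lef1 at 0.02. With shares of 3.39% lower and 2.39% higher over all genes detected, 0 calls in the striatal and thalamus lists are not results about them. The choroid plexus markers had a summed signal of 7018 in WT against 4222 in Cx30 KO over the probes used, most of it from Enpp2.

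**Figure D3:**
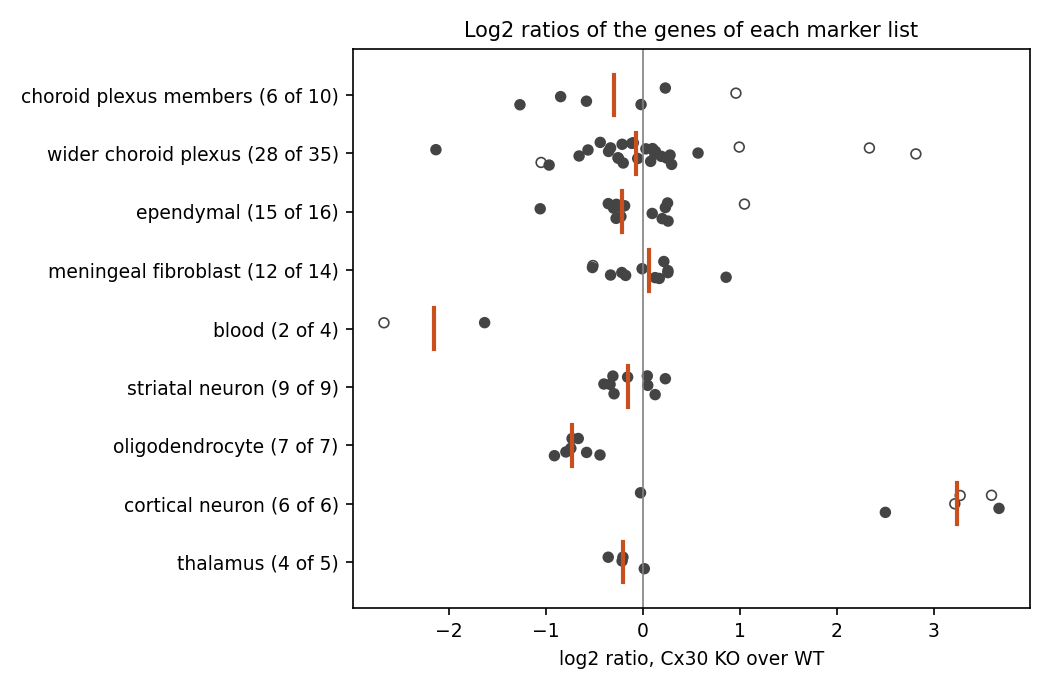
Log2 ratio of Cx30 KO over WT (x axis) of each detected gene in 9 marker lists (rows, with the number detected of the number listed); filled points were detected on both arrays, open points on 1, and orange bars are list medians. The choroid plexus markers lie on both sides of 0, the oligodendrocyte genes all lie below 0 and 5 of the 6 cortical neuron genes lie far above it.

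**Figure D4:**
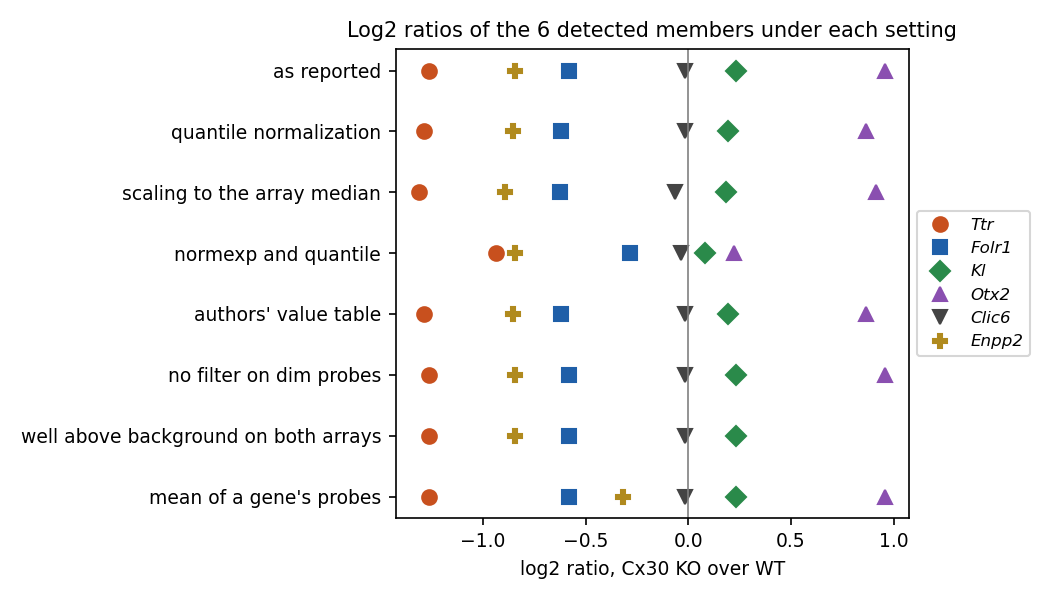
Log2 ratio of Cx30 KO over WT (x axis) of the 6 detected choroid plexus markers under each processing setting (rows). Ttr, Enpp2 and Folr1 stay below 0 and Kl and Otx2 above it in every row that holds them, while the Enpp2 value is nearest to 0, at −0.32, when its probes are averaged.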

How the data were processed

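The authors extracted spot signals with Agilent Feature Extraction; the labels name version 9.5.1.1 and the file header 10.7.1.1. The deposited processed signals are linear intensities, background-subtracted and detrended within each array, and were not normalised between arrays. The deposited value table also holds intensities; 99.991% of them differ by less than 1% from processed signals after quantile normalisation. Probe positions are those of mm9.

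Control and outlier spots were left out, log2 signals were averaged over the spots of a probe, and the 75th percentile of each array (401 in WT, 382 in Cx30 KO) was subtracted. Each array had 62976 spots and 56605 probes, of which 56.6% in WT and 58.2% in Cx30 KO were well above background (at least 50% of spots marked so); 0 were saturated. Both arrays shared 1 slide. The number of arrays limits the precision. For each gene the brightest probe detected on at least 1 array was used. A gene detected on 1 array only was limited by the higher of its own signal and the lowest signal well above background on the other array. Symbols of 1897 probes were updated with RefSeq.

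The methods do not say over which probes the Z-score was taken. The 1000 nearest among all probes were used here, a reading settled after the counts of calls with all and with only detected probes had been seen; the second is given as an alternative. The members and marker lists were chosen with earlier results of these data known. Genes named are all members, genes of the wider choroid plexus, ependymal and meningeal lists that met the criteria with the 3 brightest of each, up to 2 bright genes of the other lists, and Gjb6; some genes under this rule are not reported here. Genes named beyond this rule were chosen after their values were seen. Alternatives were quantile and median scaling, normexp (limma 3.58.1, R 4.3.3), the value table, other filters on dim probes, the mean of probes, other Z-scores and other ratio limits. The calculations used Python 3.11.15, numpy 2.4.6 and pandas 2.3.3 and were tested on simulated data.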

Additional observations from a re-analysis of the deposited data

How the results depend on the processing

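With no replicates, a value was taken to have moved when it shifted by at least the SD of log2 ratios between probes of a gene, 0.256 over 6986 genes with several probes on both arrays. No result changed direction by this measure, though filters and the mean of probes could not alter the values of members with 1 detected probe. The median log2 ratio of the choroid plexus markers, −0.30, was −0.58 over genes detected on both arrays, where Otx2 drops out. It was −0.0172 over the 5 members left when Enpp2, whose detected probes differ in direction, drops out. Each of these 5 had only 1 detected probe, so agreement between their probes could not be checked. It was −0.04 with no filter on dim probes, −0.16 with normexp and −0.17 with the mean of probes, all nearer to 0 by more than 1.5 times. The count of members lower by the criteria fell from 2 to 1 when probes of a gene were averaged, with the Z-score over all probes at once and with ratio limits of 2 and 0.5. With the Z-score over all probes at once, Ttr had −2.15 and Enpp2 −1.45, and 455 genes were lower and 502 higher. With only detected probes as neighbours, an alternative added after seeing the data, 627 genes were lower and 425 higher against 746 and 525, the members kept 2 lower and 0 higher calls, and the calls fell to 1 of 2 blood genes and 4 of 6 cortical genes. Normexp gave −0.94 for Ttr, −0.28 for Folr1 and 0.22 for Otx2, and the mean of probes gave −0.32 for Enpp2. The causes were not tested beyond these constructions. For the 4 members with no detected probe a difference was not detectable at these signals. No paired analysis was possible because each group has 1 array and the comparison has no test.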
